A study of Mus musculus with 59 samples.

Results

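Acta2, Tagln, Cnn1, Myh11, Rgs5 and Pdgfrb are genes by which smooth muscle cells, pericytes and myofibroblasts are commonly told from the other cells of a tissue. They were followed on 7 probe sets, which are all the probe sets annotated to exactly 1 of these 6 genes among 12488 on an Affymetrix array, of which 10833 named exactly 1 gene, 8251 genes in all. Rgs5 had 2 probe sets and every other member 1, and 0 probe sets named a member together with another gene. All 7 passed the filter on dim probe sets, which asked for an intensity of at least 108.2 on at least 3 arrays. Cnn1 reached that intensity on 11 of 59 arrays, Myh11 on 57, and the other members on all 59.

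Total RNA was measured in pieces of mouse left ventricle, with 1 array per piece. The infarct group was tissue from below the left anterior descending (LAD) coronary artery, towards the apex, of mice with a myocardial infarction. The remote group was tissue from above that artery in mice with an infarct and lay outside the infarct. The sham upper group was the region above the artery in sham-operated mice, the control of both by the labels, and the sham lower group was the lower region of sham-operated mice. Tissue was taken 1 h, 4 h, 24 h, 48 h, 1 week or 8 weeks after surgery, with 3 arrays at each of these 6 times in the first 3 groups, 18 arrays per region. The sham lower group had 5 arrays, 1 at each time but 8 weeks. The sources used here do not give strain, sex or age of the mice or how the infarct was made. The array titles carry a number whose meaning the labels do not state, so p values measure the spread between arrays, which may in part be technical. Arrays are named below by the rank of that number among the 3 of their group (lowest, middle, highest), and values are given in that order.

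Smooth muscle cells form the wall of arteries, and pericytes wrap capillaries, and both are called mural cells. Smooth muscle cells contract with a set of actin and myosin filament proteins whose genes are switched on through serum response factor and its cofactor myocardin, which act at CArG boxes in the DNA. After an infarct, cardiac fibroblasts are known to become myofibroblasts, which lay down the collagen scar and take on part of that contractile set, above all Acta2. Acta2 encodes smooth muscle alpha-actin, Tagln the actin-binding protein transgelin (SM22), Cnn1 calponin, and Myh11 the smooth muscle myosin heavy chain, which is the most restricted of these to smooth muscle. Rgs5 encodes a regulator of G protein signalling that is a marker of pericytes, and Pdgfrb the receptor through which platelet-derived growth factor B recruits and keeps mural cells, and which fibroblasts carry too.

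On the mouse build GRCm38.p6 the members lie apart from each other. The annotation used here places Acta2 at chr19:34240336-34255585, Tagln at chr9:45929628-45936058 and Cnn1 at chr9:22099221-22109221. Myh11 lies at chr16:14194527-14292188 and Rgs5 at chr1:169655501-169695813. Acta2 and Cnn1 both passed as higher in the infarct at 1 week, and Acta2 alone of the pair passed at 4 h and 24 h, so the 250 bases before the start site that RefSeq gives for each (GRCm38.p6) are shown, with capitals for CArG boxes. A CArG box was searched as CCNNNNNNGG with at most 1 of the inner 6 bases other than A or T. The motif reads the same on both strands. The start sites of these windows are not the ends of the gene spans given above: that of Acta2 lies 212 bases and that of Cnn1 32 bases inside the span.
Acta2, chr19:34255374-34255623, minus strand: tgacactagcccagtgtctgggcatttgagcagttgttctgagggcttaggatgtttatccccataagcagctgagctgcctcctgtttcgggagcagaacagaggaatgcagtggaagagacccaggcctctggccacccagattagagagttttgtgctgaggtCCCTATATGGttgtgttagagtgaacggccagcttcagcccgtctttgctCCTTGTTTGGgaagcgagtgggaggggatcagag
Cnn1, chr9:22099003-22099252, plus strand: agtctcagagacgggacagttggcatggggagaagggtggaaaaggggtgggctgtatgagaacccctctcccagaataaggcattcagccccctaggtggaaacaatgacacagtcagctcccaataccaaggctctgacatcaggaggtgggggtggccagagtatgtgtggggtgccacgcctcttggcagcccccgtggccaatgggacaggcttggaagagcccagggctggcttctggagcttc
The Acta2 window held 2 matches, CCCTATATGG at 84 to 75 bases before the start site and CCTTGTTTGG at 34 to 25, each with 1 inner base that is not A or T, and it held 0 with all inner bases A or T. The Cnn1 window held 0 matches, as did that of Rgs5. Among 32851 windows of the same length, 8.59% held such a match and 1.47% one with all inner bases A or T. The windows of Tagln, Myh11 and Pdgfrb were not analysed here.

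The authors' deposited values are intensities on a linear scale. Per array, the median intensity was between 157 and 214, and arrays of the same group correlated at 0.951 or more over probe sets. Changes are differences of log2(intensity + 45.6) ± SE between groups of n = 3 arrays, and the added value, a fraction of the median intensity, shrinks the changes of dim probe sets such as that of Cnn1. Adjusted p values are those of limma with Benjamini-Hochberg adjustment over 8140 probe sets, and an adjusted p below 0.05 counts as passing. The infarct and the remote group were both set against the same sham upper arrays. Up to 48 h the title numbers of infarcted and sham-operated mice lay in separate ranges, so that infarction and any handling of these sets apart cannot be told apart in the comparisons with sham. The comparison of infarct with remote tissue does not have this limit. Infarct pieces came from below the artery, and remote and sham upper pieces from above it. Infarction and the site of the piece therefore cannot be told apart in either comparison of the infarct.

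The members fell into separate courses. Acta2 was higher in the infarct at 4 h, 24 h, 1 week and 8 weeks. Tagln and Cnn1 were higher at 1 week, in the infarct and in remote tissue. Myh11 and both probe sets of Rgs5 were lower in the infarct at 24 h and 48 h. Remote tissue passed for none of them there, though on 96180_at of Rgs5 it lay below all sham upper arrays at 48 h. Pdgfrb was higher at 1 week in both regions. Set against sham upper tissue, 1 member probe set rose in the infarct at 4 h, where 5.15% of all 8140 rose, and 0 fell, where 6.12% of all fell. At 24 h 1 rose (18.3% of all) and 3 fell (22.4%), and at 48 h 0 rose (24.6%) and 4 fell (24.8%). At 1 week 4 rose (34.1%) and 1 fell (24.3%), and at 8 weeks 2 rose (11.1%) and 0 fell (8.88%). At 1 h 0 passed, against 6.34% of all in either direction. Of all probe sets 40.7%, 49.4% and 58.4% passed in either direction at 24 h, 48 h and 1 week, so with 7 probe sets the counts alone do not set the members apart from other genes. In remote tissue 1 rose and 0 fell at 24 h (2.59% and 1.40% of all), 1 rose and 0 fell at 48 h (4.14% and 4.07%), and 3 rose and 0 fell at 1 week (19.6% and 16.1%). None passed there at 1 h (7.33% of all in either direction), 4 h (1.61%) or 8 weeks (0.0860%).

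**Figure D1:**
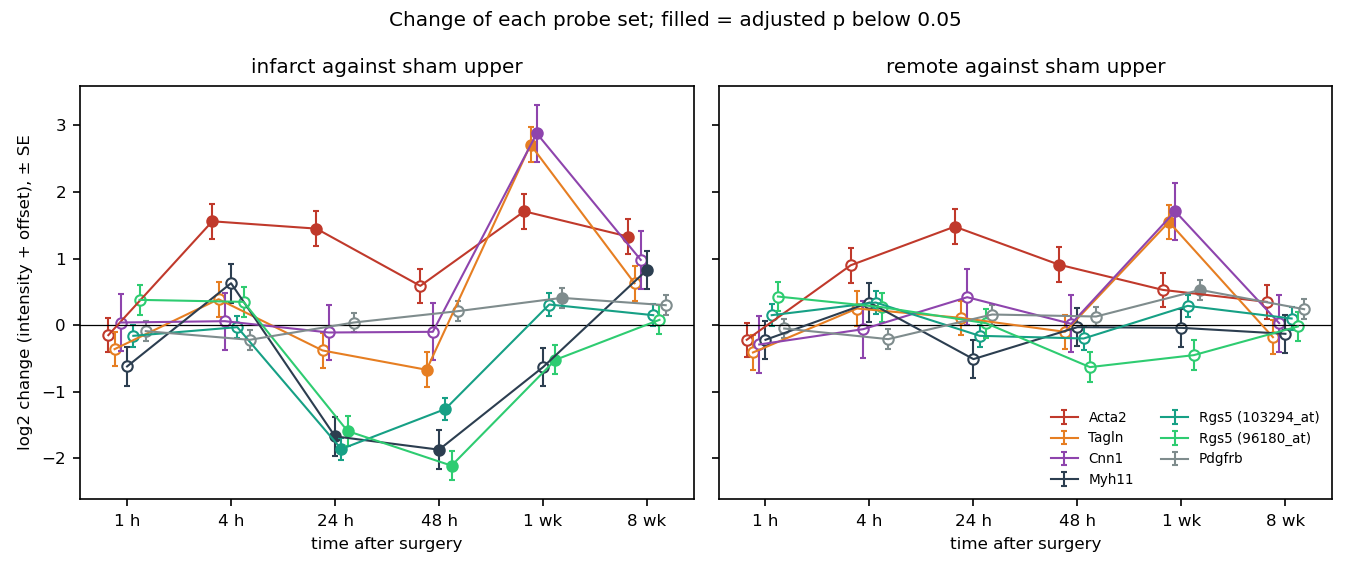
Changes against sham upper tissue of the 7 member probe sets (y axis, log2 of intensity plus an offset, ± SE) at the 6 times (x axis), infarct left and remote right, n = 3 arrays a group. Filled points passed an adjusted p below 0.05. Myh11 and Rgs5 dip at 24 h and 48 h in the infarct panel, and Tagln and Cnn1 peak at 1 week in both panels.

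Acta2 was the first member to pass the test. At 1 h it read 1780.5, 1846 and 2233 in the infarct and 2208, 2243 and 2047 in sham upper tissue, a change of -0.15 ± 0.26 (adjusted p = 0.82). At 4 h it read 3153, 5346 and 4632 in the infarct, against 1336, 1491 and 1451 in sham upper tissue. Each infarct array at 4 h lay above every sham array, and the change was 1.56 ± 0.26 (adjusted p = 5.7e-05), a fold of 2.94. The step of the infarct effect between 1 h and 4 h was itself a change of 1.71 ± 0.37 (adjusted p = 0.012). At 24 h the infarct arrays held 2939, 2489 and 3837 and the sham upper arrays 1266.5, 717.0 and 1308. The groups again did not overlap, with a change of 1.45 ± 0.26 (adjusted p = 2.2e-05). With the 24 h sham lower array as the only control, a single array assumed to vary like the other groups, the change was 0.95 ± 0.37 (adjusted p = 0.06).

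At 48 h Acta2 was 2621.5, 3111 and 2531 in the infarct and 1493, 1471 and 2680.5 in sham upper tissue. One sham array, that with the highest number, lay among the infarct arrays, and the change of 0.59 ± 0.26 did not pass (adjusted p = 0.061). Without that array it was 0.87 (adjusted p = 0.01). At 1 week Acta2 reached its highest level of all groups, 5805, 5992 and 7723 in the infarct, against 1991, 1714 and 2124 in sham upper tissue. Every infarct array was more than any other array of the series held, and the change was 1.71 ± 0.26 (adjusted p = 4.4e-07). At 8 weeks the infarct arrays held 2119, 3586 and 4927, and the sham arrays 1643.5, 1195 and 1138. The infarct arrays were spread widely but each was above all sham arrays, with a change of 1.33 ± 0.26 (adjusted p = 0.00046) that did not pass when only these groups were fitted (adjusted p = 0.082).

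Remote tissue also held more Acta2. At 4 h it read 2728, 2874 and 2499.5 in remote tissue, all above the 3 sham upper arrays, with a change of 0.90 ± 0.26 that did not pass (adjusted p = 0.074). At 24 h it read 3732, 3788 and 1926, a change against sham of 1.48 ± 0.26 (adjusted p = 3e-04). The remote array with the highest number was the lowest of the 3, yet above each sham array, and the call ended with only these groups in the fit (adjusted p = 0.11). At 48 h the remote arrays held 3237, 2815 and 4438, a change of 0.91 ± 0.26 (adjusted p = 0.025) that ended without any of 3 single arrays (0.72 to 0.77, adjusted p of 0.11 to 0.15) and with only these groups in the fit (adjusted p = 0.16). An infarct minus remote difference did not pass at these times, with -0.03 ± 0.25 (adjusted p = 0.94) at 24 h and -0.32 ± 0.25 (adjusted p = 0.29) at 48 h. At 1 week remote tissue held 2278, 2365 and 4133, all below the infarct and above sham. The infarct was higher by 1.18 ± 0.25 (adjusted p = 0.00015), and the remote change against sham was 0.53 ± 0.26 (adjusted p = 0.12).

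In order of mean level, the infarct at 1 week (6506 ± 1057.5, SD, n = 3) stood above the infarct at 4 h (4377 ± 1118.5) by more than the larger SD of the pair. From the infarct at 4 h down to remote tissue at 4 h (2701 ± 189.0), the next 8 groups in the order, all infarct or remote, followed each other by less than their SDs. Sham upper tissue at 24 h had the lowest mean (1097 ± 329.8).

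Tagln rose at 1 week, after a small fall at 48 h. Its infarct arrays read 663.5, 682.9 and 795.8 at 4 h, against 644.5, 472.9 and 492.8 in sham upper tissue, a change of 0.39 ± 0.26 (adjusted p = 0.4). At 48 h they read 650.8, 502.3 and 330.1, against 802.5, 794.1 and 759.2 in sham tissue. All infarct arrays were below all sham arrays there, and the change of -0.67 ± 0.26 (adjusted p = 0.034) passed narrowly, ending without any of 5 of the 6 arrays (adjusted p of 0.055 to 0.22) and against the sham lower array (-0.35). At 1 week Tagln read 3785, 4909.9 and 5727 in the infarct, against 775.9, 657.7 and 633.2 in sham tissue. The infarct arrays stood far above, with a change of 2.71 ± 0.26 (adjusted p = 1.1e-11), a fold of 6.54. The shift of the infarct effect between 48 h and 1 week was 3.38 ± 0.37 (adjusted p = 1.6e-08), and that between 1 week and 8 weeks was -2.08 ± 0.37 (adjusted p = 2.9e-05).

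In remote tissue Tagln followed the same 1 week peak at a lower height. The remote arrays at 1 week held 1648, 1911 and 2919, all above sham and all below the infarct, with a change against sham of 1.55 ± 0.26 (adjusted p = 1.2e-05) and an infarct minus remote difference of 1.16 ± 0.25 (adjusted p = 0.00019). At 48 h remote tissue held 684.7, 863.9 and 653.8 and at 8 weeks 513.6, 504.5 and 929.1, levels that overlapped those of sham. The remote effect shifted by 1.65 ± 0.37 (adjusted p = 0.0032) into the 1 week time and by -1.73 ± 0.37 (adjusted p = 0.0018) out of it.

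At 8 weeks Tagln ranged widely in the infarct, with 570.6, 1009.5 and 2449, against 764.6, 666.6 and 709.5 in sham tissue. The array with the lowest number lay below every sham array and the other 2 above, and the change of 0.63 ± 0.26 did not pass (adjusted p = 0.084). Without that lowest-number array it was 1.08 (adjusted p = 0.0014).

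Cnn1 was dim on most arrays and bright at 1 week. In the infarct at 1 week it read 539.2, 626.7 and 648.8, against 46.2, 14.6 and 79.4 in sham upper tissue. Remote tissue read 129.4, 310.6 and 341.3. The infarct arrays lay above the remote arrays and these above the sham arrays, and the changes against sham were 2.88 ± 0.43 (adjusted p = 1.9e-07) for the infarct and 1.71 ± 0.43 (adjusted p = 0.0014) for remote tissue. Because sham values lay below the intensity used as the filter, the size of the change depends on the added value, and over the settings tried it ran from 1.79 to 3.65 for the infarct and from 0.92 to 2.35 for remote tissue. The infarct minus remote difference was 1.17 ± 0.40 (adjusted p = 0.017), and it ended once the lowest-number remote array was left out (0.82, adjusted p = 0.16). The infarct effect on Cnn1 shifted by 2.97 ± 0.60 (adjusted p = 3e-04) into the 1 week time and by -1.89 ± 0.60 (adjusted p = 0.013) out of it. At 24 h and 48 h Cnn1 was 49.7, 12.8 and 47.3 and then 37.8, 59.1 and 13.2 in the infarct, under 108.2 on every array. The probe set name ends in _s_at, which marks probes that can match more than one transcript.

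**Figure D2:**
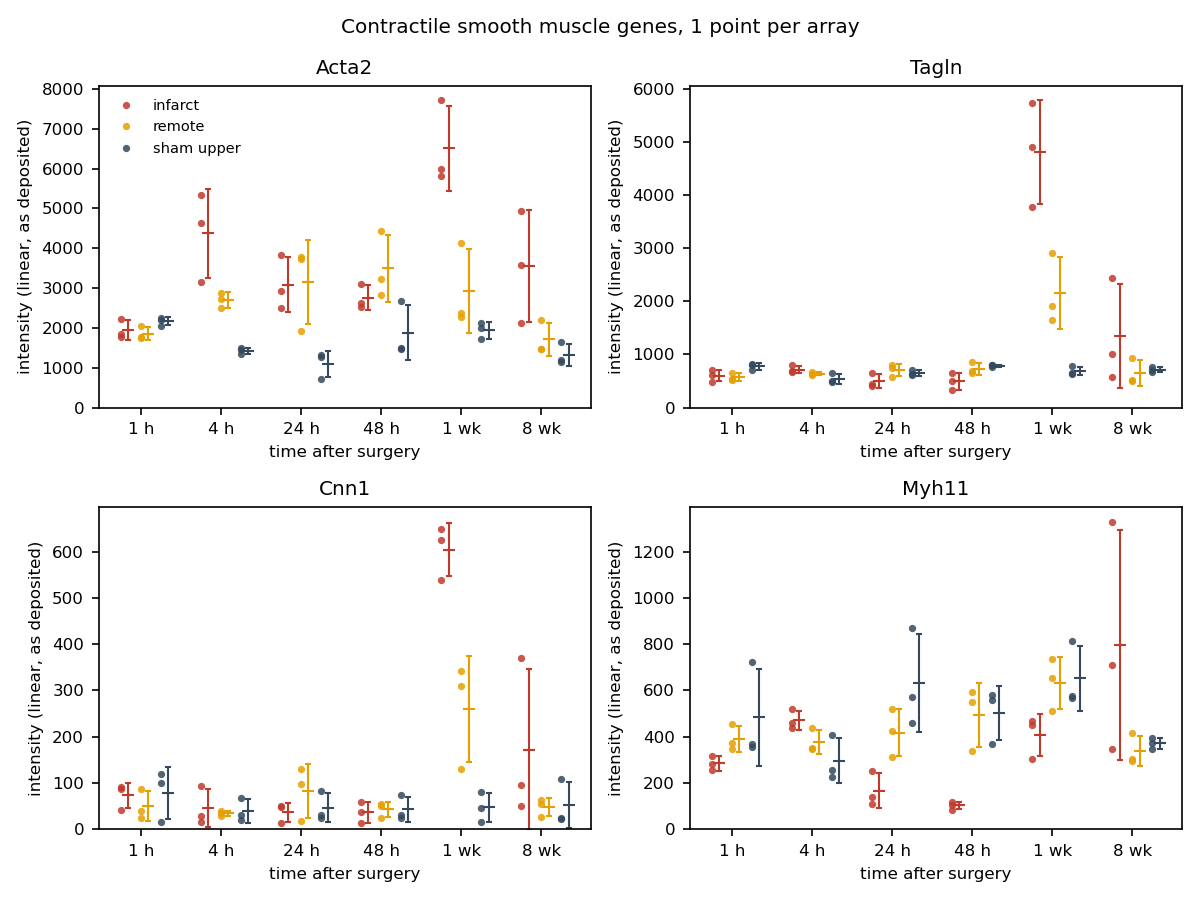
Linear intensities of Acta2, Tagln, Cnn1 and Myh11 (y axes) by time (x axis), 1 point per array, with mean and SD (n = 3) beside the points, for infarct, remote and sham upper tissue from left to right at each time. Error bars that reach below 0 are cut at the axis. Acta2 stands high in the infarct at 4 h and 1 week, Tagln and Cnn1 at 1 week, and Myh11 is lowest in the infarct at 24 h and 48 h.

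Myh11 took another course than the other contractile genes. At 4 h it read 457.9, 439.6 and 517.8 in the infarct and 407.0, 224.3 and 257.2 in sham upper tissue. The groups did not overlap, but the change of 0.63 ± 0.29 did not pass (adjusted p = 0.16). At 24 h it read 138.9, 110.4 and 250.5 in the infarct, against 458.8, 571.4 and 869.5 in sham tissue. All infarct arrays were below all sham arrays, with a change of -1.67 ± 0.29 (adjusted p = 8.5e-06). At 48 h the infarct held 117.5, 105.4 and 83.6, and sham tissue 367.5, 560.4 and 579.0. The infarct at 48 h had the lowest mean Myh11 of any group (102.2 ± 17.2, SD, n = 3), and the change was -1.87 ± 0.29 (adjusted p = 7.2e-07), which leaves a fold of 0.273.

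The fall was seen against remote tissue of infarcted mice as well. Remote arrays held 423.8, 311.3 and 517.9 at 24 h and 548.9, 594.1 and 338.1 at 48 h. They overlapped with sham at both times, and the infarct minus remote differences were -1.17 ± 0.27 (adjusted p = 0.0011) and -1.84 ± 0.27 (adjusted p = 4.3e-07). The infarct effect shifted by -2.31 ± 0.41 (adjusted p = 0.00011) between 4 h and 24 h. Between 48 h and 1 week it shifted by 1.24 ± 0.41 (adjusted p = 0.022).

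At 1 week, when Acta2, Tagln and Cnn1 were at their highest, Myh11 read 450.1, 302.9 and 467.2 in the infarct and 815.8, 567.6 and 573.9 in sham tissue. The infarct arrays lay below the sham arrays, with a change of -0.63 ± 0.29 that did not pass (adjusted p = 0.059) and did after quantile normalization (-0.81, adjusted p = 0.015). Against the sham lower array of 1 week its direction turned, to 0.41 (adjusted p = 0.45). At 8 weeks the infarct held 345.8, 710.8 and 1329.7, against 373.6, 346.0 and 392.5 in sham tissue. Only the middle and highest arrays exceeded sham, and the change of 0.83 ± 0.29 (adjusted p = 0.035) was lost in 6 of 14 settings, among them without the highest-number array (0.41, adjusted p = 0.38).

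Rgs5, read by 2 probe sets, fell in the infarct with Myh11. On 103294_at the infarct read 416.1, 357.3 and 228.5 at 24 h, against 1062, 1416 and 1449.8 in sham upper tissue. At 48 h it read 411.6, 410.5 and 536.6, against 1076, 1087 and 1272 in sham tissue. No infarct array came near a sham array at either time, and the changes were -1.86 ± 0.17 (adjusted p = 7.4e-12) and -1.26 ± 0.17 (adjusted p = 3.9e-08). On 96180_at the infarct read 197.7, 246.7 and 382.4 at 24 h and 121.7, 141.9 and 270.3 at 48 h. Sham tissue held 703.4, 962.4 and 1033 at 24 h and 650.1, 980.9 and 1069.6 at 48 h. The groups were again apart, with changes of -1.59 ± 0.22 (adjusted p = 2.2e-07) and -2.11 ± 0.22 (adjusted p = 2.8e-10). These calls held in every setting tried.

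The fall of Rgs5 came after 4 h, when the 2 probe sets differed from sham by -0.03 ± 0.17 (adjusted p = 0.94) and 0.35 ± 0.22 (adjusted p = 0.36). The shift of the infarct effect between 4 h and 24 h was -1.83 ± 0.24 (adjusted p = 9.5e-07) on 103294_at and -1.93 ± 0.31 (adjusted p = 3.8e-05) on 96180_at. Remote tissue held 1244, 1147 and 1124 on 103294_at at 24 h, each far above the infarct arrays. The infarct minus remote difference was -1.70 ± 0.16 (adjusted p = 8.9e-11) there and -1.61 ± 0.21 (adjusted p = 1.7e-07) on 96180_at. At 48 h that difference was -1.06 ± 0.15 (adjusted p = 4.9e-07) and -1.48 ± 0.21 (adjusted p = 2.1e-07). On 96180_at remote tissue held 532.4, 646.7 and 487.8 at 48 h, all below the sham upper arrays. The remote change against sham of -0.63 did not pass in limma (adjusted p = 0.069). It passed with a larger added value (adjusted p = 0.046), with both sham regions as control (0.022) and without the lowest-number sham array (0.028).

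At 1 week the probe sets of Rgs5 differed in direction against sham upper tissue. On 103294_at the infarct read 1138, 899.6 and 1085, against 861.5, 781.5 and 831.4 in sham tissue. On 96180_at it read 513.6, 462.0 and 415.2, against 783.2, 563.1 and 715.3 in sham tissue. The infarct lay above all sham arrays on the first, with a change of 0.31 ± 0.17 (adjusted p = 0.1), and below them on the second, with a change of -0.52 ± 0.22 (adjusted p = 0.043) that ended without any of 5 of the 6 arrays. Against the sham lower array of 1 week the changes were -0.24 (adjusted p = 0.44), a turned direction, and -1.10 (adjusted p = 0.0038), and the infarct minus remote differences were 0.03 ± 0.15 (adjusted p = 0.91) and -0.07 ± 0.21 (adjusted p = 0.83). At 8 weeks neither probe set passed, with 0.15 ± 0.17 (adjusted p = 0.55) and 0.08 ± 0.22 (adjusted p = 0.83). The infarct effect shifted by 1.58 ± 0.24 (adjusted p = 4.4e-06) and 1.59 ± 0.31 (adjusted p = 0.00023) between 48 h and 1 week. Across 54 arrays the probe sets correlated at 0.79.

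Pdgfrb, at chr18:61045127-61085067 on GRCm38.p6, passed against sham upper tissue at 1 week alone. At 24 h it read 519.8, 520.2 and 467.2 in the infarct, inside the range of 566.1, 517.7 and 391.3 in sham tissue, and the change was 0.04 ± 0.15 (adjusted p = 0.84). At 1 week it read 602.3, 598.3 and 748.7 in the infarct and 610.6, 728.3 and 793.1 in remote tissue. Sham upper tissue held 465.3, 472.1 and 487.9 then. Both regions lay above all sham arrays, with a change of 0.41 ± 0.15 (adjusted p = 0.015) in the infarct and 0.53 ± 0.15 (adjusted p = 0.0039) in remote tissue. The infarct call ended without the highest-number infarct array (0.32, adjusted p = 0.094) and after quantile normalization (0.23, adjusted p = 0.16). The infarct minus remote difference was -0.12 ± 0.14 (adjusted p = 0.52). At 48 h, when Rgs5 was low, the infarct change of Pdgfrb was 0.21 ± 0.15 (adjusted p = 0.25). Against the sham lower array it was 0.52 at 48 h (adjusted p = 0.049) and 0.77 at 1 week (adjusted p = 0.0023).

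**Figure D3:**
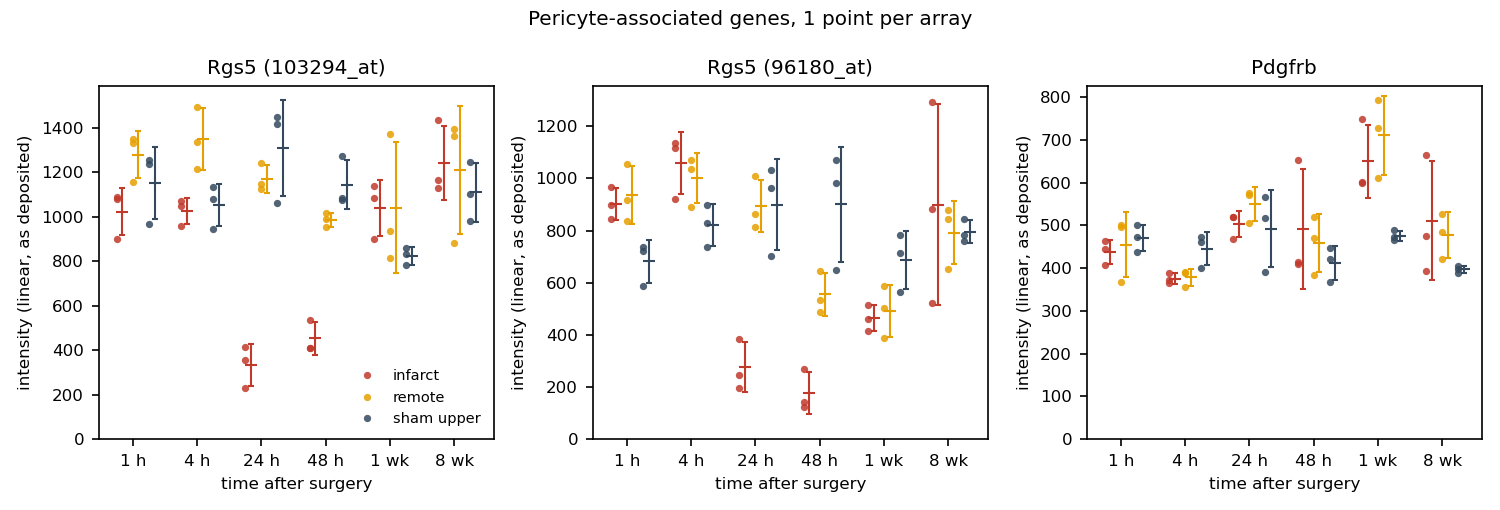
Linear intensities of both Rgs5 probe sets and of Pdgfrb (y axes) by time (x axis), 1 point per array, with mean and SD (n = 3), for infarct, remote and sham upper tissue from left to right. Both Rgs5 probe sets are lowest in the infarct at 24 h and 48 h, and Pdgfrb is highest at 1 week in the infarct and remote groups.

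The infarct effect differed between times for 6 of the 7 probe sets by limma's F test, where 62.6% of all probe sets passed, and for Pdgfrb it did not (adjusted p = 0.055). The remote effect differed between times for 3, Acta2, Tagln and Rgs5 on 96180_at (all probe sets 25.4%). Sham upper tissue itself changed over the 6 times for Acta2 (adjusted p = 0.03) and Myh11 (adjusted p = 0.038), 2 of 7 probe sets, against 19.6% of all. Sham Acta2 was lowest at 24 h, 1 of the times at which its infarct and remote changes were called. The infarct was also called higher at 4 h, 1 week and 8 weeks, and remote tissue at 48 h. Between neighbouring times, the infarct effect shifted in 1.14% of all probe sets from 1 h to 4 h, in 15.6% from 4 h to 24 h, in 24.7% from 48 h to 1 week and in 35.1% from 1 week to 8 weeks. The remote effect shifted upward in 8.01% of all from 48 h to 1 week and downward in 8.14% from 1 week to 8 weeks. Infarct and remote tissue, set against each other, differed in 3 member probe sets at 24 h, all lower in the infarct (16.3% of all probe sets lower, 15.1% higher). The same 3, Myh11 and both probe sets of Rgs5, were lower at 48 h (22.5% lower, 23.6% higher). At 1 week 3 were higher in the infarct (22.2% of all higher, 16.9% lower) and at 8 weeks 3 (3.44% higher, 2.17% lower). At 1 h and 4 h 0 passed (4.57% and 1.27% of all in either direction). The 3 at 8 weeks were Acta2, Tagln and Myh11. Without the infarct array with the highest number their differences were 0.72, 0.31 and 0.54, with adjusted p values of 0.28, 0.63 and 0.43.

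Over the 54 infarct, remote and sham upper arrays, Tagln and Cnn1 had the closest courses of any pair of members (r = 0.88). Within the 18 infarct arrays r was 0.96, within remote tissue 0.88 and within sham upper tissue 0.05. Acta2 correlated with Tagln at 0.56 and with Myh11 at 0.03 (0.80 and 0.49 within the infarct). Myh11 correlated with Rgs5 at 0.58 on 103294_at and 0.51 on 96180_at, but not alike in each region. Within the infarct these values were 0.72 and 0.66, within remote tissue -0.52 and -0.58, and within sham upper tissue 0.16 and 0.1. These values describe arrays that share groups, regions and times. Among all genes tested, those with the course most like Acta2 were Dstn (r = 0.81), Sowahc (0.76) and Adgrd1 (0.75). For Tagln they were Cfi (0.93), Capn6 (0.93) and Meg3 (0.92), and for Cnn1 they were Tagln (0.88), Cd72 (0.88) and Col14a1 (0.85). For Myh11 they were Clec3b (0.81), Ephx1 (0.73) and Itm2b (0.73). For Rgs5 on 103294_at they were Pcyox1 (0.82), Akap9 (0.76) and Fbxo3 (0.76), and for Pdgfrb Ilk, Rab31 and Cyb5r3 (0.77 each).

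Other genes listed for contractile smooth muscle, some of them not parts of the contractile machinery, rose more often than they fell. Of 20 probe sets of 15 such genes, 9 rose and 4 fell in the infarct at 24 h, with a median change of 0.43, against -0.01 over all probe sets. At 48 h 12 rose and 2 fell, and at 1 week 16 rose and 1 fell. All probe sets rose in 18.3%, 24.6% and 34.1% of cases at 24 h, 48 h and 1 week, and fell in 22.4%, 24.8% and 24.3%. In remote tissue at 1 week 19.6% of all rose and 16.1% fell. The median at 1 week was 1.31 in the infarct and 0.78 in remote tissue, where 14 rose and 0 fell, against 0.11 and 0.06 over all. Actn1, a non-muscle actin cross-linker, rose by 3.34 in the infarct at 1 week and Ptgis, the prostacyclin synthase of vessel walls, by 2.53. Smtn, encoding smoothelin, fell by 1.27. Myl9, the regulatory light chain of smooth muscle myosin, differed between times, with -0.92 at 48 h (adjusted p = 0.00011) and 0.81 at 1 week (adjusted p = 4e-04). Fibroblasts, leukocytes and cardiomyocytes are known to use many of these genes too.

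Cofactors of serum response factor and related genes fell more often than they rose at 48 h. Neither serum response factor itself nor myocardin was among the genes read for this list. Of 12 probe sets of 10 genes, 1 rose and 5 fell in the infarct at 48 h, and 5 rose and 2 fell at 1 week. Of all probe sets 24.6% rose and 24.8% fell at 48 h, and 34.1% rose and 24.3% fell at 1 week. Csrp2, a LIM protein of smooth muscle, rose by 2.90 at 1 week and Mrtfa, a cofactor of serum response factor that actin holds outside the nucleus, by 1.00. Fhl2, a LIM protein abundant in cardiomyocytes, fell by 2.33.

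The other mural cell and pericyte markers moved both ways. Of 10 genes, each with 1 probe set, 1 rose and 4 fell in the infarct at 24 h, 1 rose and 5 fell at 48 h, and 3 rose and 3 fell at 1 week. In remote tissue 3 rose and 4 fell at 1 week (19.6% and 16.1% of all). Of all probe sets in the infarct 18.3% rose and 22.4% fell at 24 h. At 48 h 24.6% rose and 24.8% fell, and at 1 week 34.1% and 24.3%. Abcc9, the sulfonylurea receptor subunit of a potassium channel that pericytes and cardiomyocytes both make, fell by 1.99 at 48 h. Mcam, an adhesion molecule of mural and endothelial cells, rose by 1.76. The summed level of the 10 was 3543 to 4914 in the infarct at 48 h and 7014 to 7394 in sham tissue. Abcc9 alone averaged 1117 in the infarct and 4439 in sham tissue then, so the fall of the sum largely follows that gene. Markers of neighbouring cells at that time did not share 1 direction. Of 19 endothelial probe sets, 5 rose and 5 fell, and their genes' summed level was 12358 to 13816 in the infarct and 10681 to 11499 in sham tissue. Of 16 cardiomyocyte probe sets, 13 fell and 0 rose, with sums of 118028 to 153649 in the infarct and 210930 to 255556 in sham tissue. The endothelial sum covers 14 of 17 listed genes, and no endothelial or cardiomyocyte marker was at 0 on any array. Leukocyte markers rose. Of 19 macrophage and monocyte probe sets, 14 rose and 0 fell, with sums of 22228 to 34668 in the infarct and 7566 to 10130 in sham tissue. Of 14 neutrophil probe sets, 9 rose and 0 fell, with sums of 16947 to 17528 in the infarct and 997 to 1696 in sham tissue. The part of all these markers in the fall of Rgs5 and Myh11 was not tested, and in whole tissue fewer cells of a type and less RNA per cell cannot be told apart.

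Relatives of Rgs5, regulators of G protein signalling, were read by 11 probe sets of 8 genes. In the infarct 5 rose and 1 fell at 48 h (24.6% and 24.8% of all), and 7 rose and 2 fell at 1 week (34.1% and 24.3%). Rgs19 rose by 2.34 and Rgs10 by 1.99 at 1 week, and Rgs6 fell by 1.47. Among the partners of Pdgfrb, Pdgfa, a ligand gene, rose by 0.46 in the infarct at 1 week, and the related receptor gene Pdgfra by 0.87 on 160332_at, while its other probe set, 95079_at, gave 0.25 (adjusted p = 0.51). On 160332_at sham tissue averaged 41.2, below the filter intensity, and the change turned to -0.04 against the sham lower array.

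Genes of activated fibroblasts and myofibroblasts rose with Tagln and Cnn1. Of 30 probe sets of 23 genes, 27 rose and 1 fell in the infarct at 1 week, with a median change of 3.29. Of all probe sets 34.1% rose and 24.3% fell at that time. Of those called over the whole array 58.3% were higher, and 47.5% after quantile normalization. In remote tissue 27 rose and 0 fell (19.6% and 16.1% of all), with a median of 2.61. Postn, the matrix protein periostin, read 12303, 10799 and 12636 in the infarct, 11316.5, 12962 and 13152 in remote tissue and 479.9, 439.4 and 654.6 in sham tissue at 1 week. The infarct and remote arrays overlapped with each other and lay far above sham, whereas Tagln and Cnn1 were higher in every infarct array than in every remote array. Lox, which cross-links collagen, rose by 5.71 and Tnc, encoding tenascin C, by 5.40 in the infarct. Their sham levels, 62.6 and 33.7, lay below the filter intensity, so the size of these changes depends on the added value. One of several collagen probe sets, 161156_r_at of Col1a2, fell by 0.55. TGF-beta pathway genes, which drive myofibroblast change in many tissues, were read by 18 probe sets. In the infarct 9 rose and 3 fell at 48 h (24.6% and 24.8% of all), and 9 rose and 0 fell at 1 week (34.1% and 24.3%). Tgfbi rose by 2.92 and Tgfb1, a ligand gene, by 1.85 at 48 h, and Ltbp1, whose product stores the ligand in the matrix, fell by 0.57.

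**Figure D4:**
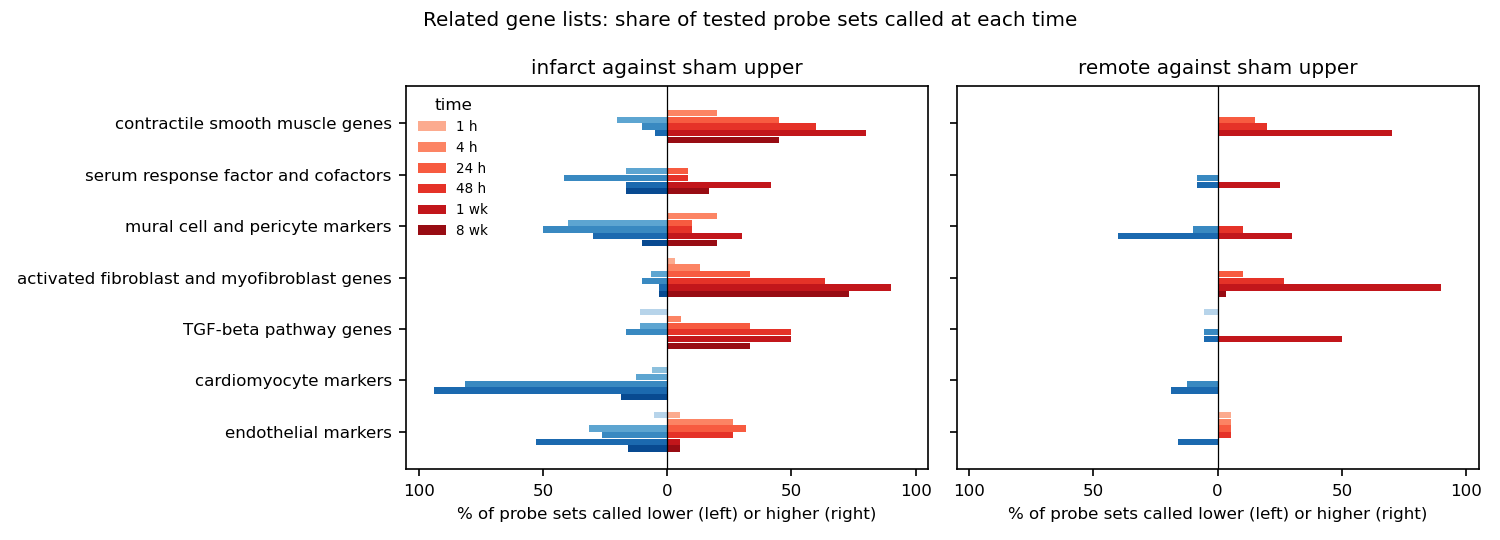
Share of each list's tested probe sets (x axis, percent) called higher (red, right of 0) or lower (blue, left of 0) against sham upper tissue, infarct left and remote right, with a bar for each time from 1 h at the top of each list to 8 weeks at its bottom. Fibroblast and contractile genes reach their highest shares at 1 week in both regions, and mural cell markers fall most often at 48 h in the infarct.

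Other markers moved with the members at 1 week. The fibroblast list summed to 124174 to 145366 in the infarct, 96446 to 126667 in remote tissue and 11521 to 16487 in sham tissue. The 14 cardiomyocyte markers on the array, of 16 listed, summed to 24990 to 81953 in the infarct, 151601 to 192960 in remote tissue and 220842 to 246754 in sham tissue. Of 16 cardiomyocyte probe sets, 15 fell in the infarct and 3 in remote tissue (24.3% and 16.1% of all probe sets fell). Epicardial and mesothelial markers rose on 7 of 8 probe sets in the infarct and on 6 in remote tissue (34.1% and 19.6% of all probe sets rose). Msln, encoding mesothelin, rose by 1.82 in the infarct, against a sham mean of 7.9 that was below the filter intensity. The part of these markers in the rise of Tagln, Cnn1 and Acta2 was not tested.

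Late infarct arrays differed among themselves. At 8 weeks the array with the highest number held the most Acta2, Tagln, Cnn1 (49.1, 95.6 and 370.9 over the 3 arrays) and Myh11 and the least Rgs5 on 96180_at (1295, 881.3 and 522.9), while on 103294_at (1435, 1129 and 1165) it was not the lowest. It also held the most Adipoq, the adiponectin gene of fat cells, with 74.9, 835.5 and 3442 over the infarct arrays, against 113.7, 93.9 and 100.2 in sham tissue. The 8 adipocyte markers on the array, of 11 listed, summed to 1789, 3562 and 9443 in the infarct and 1664 to 1948 in sham tissue. The fibroblast list summed to 23632, 46917 and 77639 and the cardiomyocyte list to 200915, 176321 and 137405 over the same 3 infarct arrays. These sums ran in 1 array order, fibroblast and adipocyte genes up and cardiomyocyte genes down. Pdgfrb ran in that order too, with 393.6, 475.5 and 664.0. At 1 week the highest-number infarct array likewise had the most Adipoq (390.2, 281.3 and 1571) and the least Myh6, the cardiac myosin heavy chain gene (8651, 7877 and 580.4). The 3 arrays were closer to each other in the members then. In remote tissue too the highest-number array held the most Adipoq at 1 week (268.5, 161.9 and 1178) and at 8 weeks (175.5, 79.2 and 655.7), and the most Acta2, Tagln, Cnn1 and Myh11 at both times. Without it the remote changes at 1 week were 1.33 for Tagln (adjusted p = 0.00055), 1.5 for Cnn1 (adjusted p = 0.015) and 0.47 for Pdgfrb (adjusted p = 0.029), all of which still passed. The highest remote Adipoq was at 4 h, in the lowest-number array (2658, 87.1 and 82.0). That array held the most Myh11 (437.9, 349.2 and 346.3) and Cnn1 (38.1, 35.4 and 28.0, all below the filter intensity). It did not hold the most Acta2 (2728, 2874 and 2499.5) or Tagln (627.0, 622.3 and 672.8). The part of fat or other tissue in the late values was not tested.

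**Figure D5:**
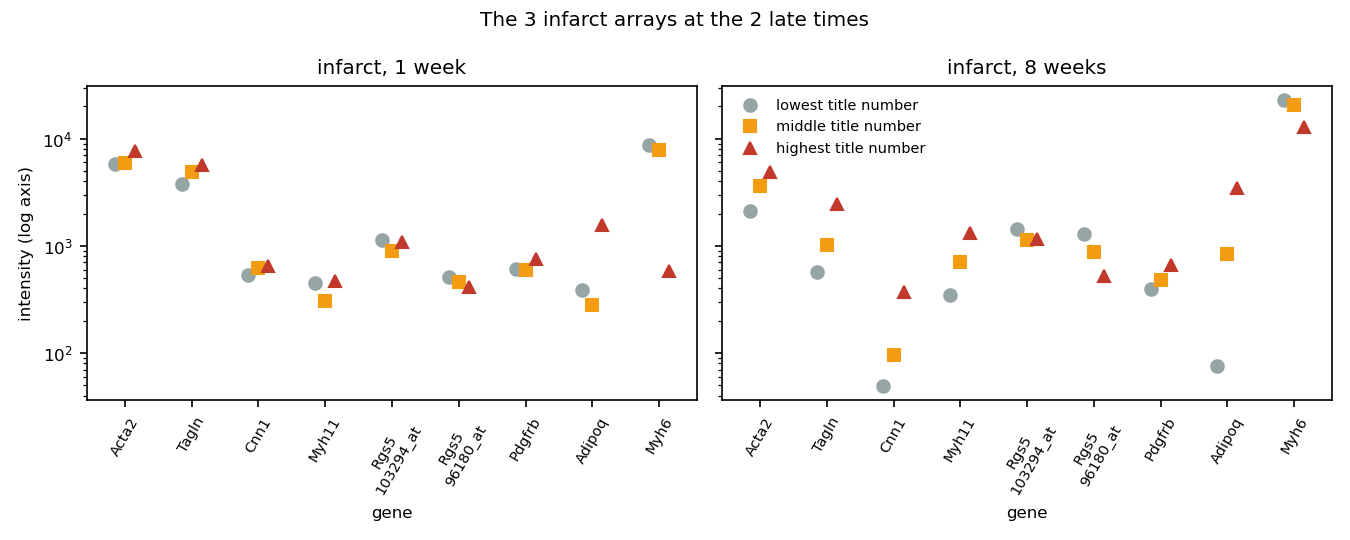
Linear intensity (y axis, log scale) of the members, Adipoq and Myh6 on each of the 3 infarct arrays at 1 week (left) and 8 weeks (right), marked by the rank of their title number. At 8 weeks the highest-number array (triangles) is above the others for Acta2, Tagln, Cnn1, Myh11 and Adipoq and below them for Rgs5 on 96180_at and Myh6.

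The site of the piece within the ventricle was checked in sham-operated mice, in 5 pairs of lower and upper pieces with the same title number. Acta2 was higher in the lower piece in 5 of 5 pairs, with 2846, 1628, 1564, 1864 and 2774 in lower pieces, against 2047, 1336, 1308, 1471 and 2124 in the upper pieces, in order of time. Myh11 and Pdgfrb were lower in the lower piece in 5 of 5 pairs. The paired changes were 0.34 ± 0.09 (adjusted p = 0.2) for Acta2, -0.58 ± 0.13 (adjusted p = 0.19) for Myh11 and -0.31 ± 0.09 (adjusted p = 0.24) for Pdgfrb, none of which passed. By limma 0 of 8140 probe sets (0%) passed and 1129 had an unadjusted p below 0.05. Set against the single sham lower array of a time, the size of some infarct changes moved. For Acta2 at 24 h it was 0.95, against 1.45 with sham upper tissue as control. For Tagln at 48 h it was -0.35, against -0.67, and for Pdgfrb at 48 h 0.52, against 0.21. Myh11 gave -1.53 at 24 h and -1.66 at 48 h, against -1.67 and -1.87.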

How the data were processed

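Gene expression was measured on Affymetrix arrays of 59 pieces of mouse left ventricle, and groups were taken from the labels. The authors deposited linear intensities, from 0 to 35489, whose mean between the 2nd and 98th percentile was 499.2 to 499.9 on every array. The sources used here name neither the scaling tool nor its target. The number of arrays limits the precision. No pair of arrays was identical, and the highest correlation was 0.988.

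Of 12488 probe sets, 66 control probe sets, 396 with several genes and 1193 with none were left out. Symbols came from the platform's annotation, and 10817 probe sets matched an entry of the mouse annotation GRCm38.p6 by gene ID. The test took 8140 probe sets of 6672 genes, those with 3 or more arrays at 108.2 (40th percentile of all values) or above. A value of 45.6, 0.25 times the median of all, was added before log2. One limma 3.58.1 model (R 4.3.3) held the 23 groups, with the title number as a random block (consensus correlation 0.137) and Benjamini-Hochberg adjustment within each comparison. The residual degrees of freedom were 36. For sham lower against upper pieces that number was a fixed block. Promoter sequences came from RefSeq. Figures were drawn with matplotlib 3.10.9 in Python 3.11.15.

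The members, the gene lists and the rule for naming genes were chosen with earlier results of these data known. Named beside the members were, per list, the 2 genes with the largest rise and the 1 with the largest fall among those that passed at the time with most calls, a fixed panel, and the 3 genes most correlated with each member. Lists are described by counts and medians with no test. Alternatives were other added values, quantile normalization, no filter, 1 probe set per gene, other blocks, a fit of the compared groups alone, both sham regions together as control, each array left out, and, added after seeing the data, the sham lower array alone as control. Data were simulated for infarct against sham at 24 h, with 50 of 8140 probe sets changed at each size. There limma recovered 30% of log2 changes of 0.5, 82% of 1 and 98% of 2, and called 8 unchanged probe sets. In the real comparison 40.7% of probe sets passed, far more than were changed in the simulation, so these rates do not carry over to it.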

Additional observations from a re-analysis of the deposited data

Results flagged for a closer look

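The infarct effect was not the same at all times for 6 of the 7 probe sets, by the moderated F test of limma on the differences between times. The adjusted p was 0.00019 for Acta2, 2.9e-09 for Tagln, 0.00014 for Cnn1 and 1.8e-07 for Myh11. It was 2.4e-10 for Rgs5 on 103294_at and 2.3e-09 on 96180_at. The lowest and highest changes of the infarct against sham were -0.15 ± 0.26 at 1 h and 1.71 ± 0.26 at 1 week for Acta2, -0.67 ± 0.26 at 48 h and 2.71 ± 0.26 at 1 week for Tagln, and -1.87 ± 0.29 at 48 h and 0.83 ± 0.29 at 8 weeks for Myh11. The effect in remote tissue differed between times for Acta2 (adjusted p = 0.011), Tagln (adjusted p = 0.0015) and Rgs5 on 96180_at (adjusted p = 0.047). Remote changes of Acta2 lay between -0.22 ± 0.26 at 1 h and 1.48 ± 0.26 at 24 h, and those of Tagln between -0.41 ± 0.26 at 1 h and 1.55 ± 0.26 at 1 week. Both effects use the same sham upper arrays, and sham Acta2 and Myh11 also differed between times.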

How the results depend on the processing

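Of 33 member comparisons that passed, 21 passed in every setting tried, and 0 member values changed direction among those that passed. Of 1822 member values under an alternative, 50 lost their call and 21 gained one. Among other named genes, Actc1 on 101029_f_at at 8 weeks in the infarct turned to 0.01 after quantile normalization (-0.30 otherwise), and Pdgfra on 160332_at at 1 week turned to -0.04 against the sham lower array alone (0.87 otherwise). The cause was not tested. The count of members that changed over time in sham tissue was 1 after quantile normalization and 0 to 3 with 1 array left out (0 without the 1 week array with the highest number). The count for remote effects that differ between times, 3, was 2 to 5 then, and 5 without the highest-number infarct array at 8 weeks. Quantile normalization moved the median of all probe sets by -0.18 at 1 week in the infarct and by -0.12 in remote tissue. It also moved the share of calls that were higher to 50.7%, against 61.6%, for infarct against remote at 1 h.

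Title numbers that infarct and remote arrays shared were not shown to pair them: in 17 such pairs the correlation of deviations from the group means ran from -0.11 to 0.41 (median 0.04). It was over 0.1 in 7 of them, among them all 3 at 1 week (0.21 to 0.41). With no replicate block the member calls were 16 (infarct against sham), 5 (remote against sham) and 10 (infarct against remote), where the random block gave 16, 5 and 12, and with a fixed replicate block the last was 14. Over all probe sets, no replicate block gave 199, 49 and 223 calls for infarct against remote at 1 h, 4 h and 8 weeks, against 372, 103 and 457, and 2 for remote against sham at 8 weeks, against 7 (2 as well after quantile normalization). The fixed replicate block gave 167 at 1 h.

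Fitting only the groups compared gave fewer calls in all comparisons but infarct against sham at 4 h (1128, against 917) and 1 week (4931, against 4756), and the cause was not tested. For infarct against sham it gave 53 at 1 h and 9 at 8 weeks, against 516 and 1623. For remote against sham it gave 102, 53, 91 and 0 at 1 h, 24 h, 48 h and 8 weeks, against 597, 325, 668 and 7. For infarct against remote it gave 5, 1154 and 0 at 1 h, 24 h and 8 weeks, against 372, 2559 and 457. Upper and lower sham arrays together gave 264 at 1 h for the infarct, and the sham lower array alone 30, 158 and 1861 at 1 h, 4 h and 24 h, against 516, 917 and 3310. Sham lower against upper gave 3 calls with a larger added value and 0 otherwise. Low signal limits Cnn1.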

Other observations

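Leukocyte markers moved in the same tissue pieces. Of 14 neutrophil probe sets, 10 rose and 0 fell in the infarct at 24 h, when Myh11 and Rgs5 were low, and 7 rose and 0 fell at 1 week. Of all probe sets in the infarct 18.3% rose and 22.4% fell at 24 h, and 34.1% rose and 24.3% fell at 1 week. S100a9 and S100a8, whose products fill the cytosol of neutrophils, rose by 5.31 and 4.86 at 24 h. The neutrophil list summed to 10246 to 21481 in the infarct, 5214 to 8135 in remote tissue and 1273 to 1682 in sham tissue at 24 h. Of 19 macrophage and monocyte probe sets, 18 rose and 0 fell in the infarct at 1 week, and 18 rose and 1 fell in remote tissue (19.6% and 16.1% of all). Lgals3, encoding galectin 3, rose by 5.59 and Cd53, a tetraspanin of leukocytes, by 3.74 in the infarct. Sham levels of S100a9 (58.9) and Lgals3 (57.8) lay below 108.2, so the size of their changes depends on the added value.

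Endothelial markers moved both ways in the infarct at 24 h, when the pericyte gene Rgs5 was low. Of 19 probe sets 6 rose and 6 fell (18.3% and 22.4% of all). Cldn5, a tight junction gene, rose by 2.30 and Emcn, encoding endomucin, by 0.75 in the infarct, while Tie1, a receptor gene, fell by 1.23. At 1 week 1 of 19 endothelial probe sets rose and 10 fell (34.1% and 24.3% of all). The adipocyte genes, Car3 and Adipoq, rose by 2.96 and 2.28 in the infarct at 8 weeks, with wide spread between the 3 arrays.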
